A study of Homo sapiens with 22 samples.

Results

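The genes described here are the zinc finger genes of human chromosome 19 that carry a ZNF symbol followed by a number. They were taken from the RefSeq annotation (GRCh38.p14) as every protein-coding gene of chromosome 19 with such a symbol, with an optional letter at the end. The rule found 246 genes among the 1451 protein-coding genes of the chromosome, 83 on the short arm (19p) and 163 on the long arm (19q), out of 19974 protein-coding genes on chromosomes 1 to 22 and X. The other 1205 protein-coding genes of chromosome 19 served as the comparison genes. Of these, 41, among them 8 KIR genes and LILRA3, are placed by the table on scaffolds that hold alternate copies, so that their positions do not hold on the main chromosome and they fall on 19p here; shares without them are given below. The rule itself uses names and positions only.

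Most of these genes encode C2H2 zinc finger proteins, in which tandem zinc-binding fingers read DNA sequence. Many also carry a KRAB domain, which recruits TRIM28 and, through it, the H3K9 methyltransferase SETDB1 to silence transposable elements and other targets. The genes multiplied by tandem duplication and stand in dense clusters, whose coding exons are known to carry heterochromatin marks in many cell types. MTBP is the partner of Treslin, and the complex of both helps to activate the replicative helicase when DNA replication starts. H3K4me2 is a histone mark of active and poised promoters and enhancers.

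The study mapped tagged MTBP and H3K4me2 by CUT&RUN, in which antibody-bound chromatin is cut free by a nuclease and sequenced, and early replication initiation zones by sequencing EdU-labelled DNA, all in DLD-1, a human colorectal cancer cell line. Every line carried an MTBP-mAID allele, in which MTBP bears a degron tag. The untagged FLAG control was MTBP-mAID/MTBP-mAID (3 libraries), the wild-type line was MTBP-mAID/MTBP-WT-FLAG (3 FLAG libraries), and the truncated line was MTBP-mAID/MTBP-deltaC-FLAG (3 FLAG libraries), whose MTBP lacks its C-terminal region. The wild-type line also gave the IgG (2 libraries), H3K4me2 (2 libraries), G1 EdU (3 libraries) and S-phase EdU (3 libraries) samples, and the truncated line gave 3 S-phase EdU libraries. For the S-phase EdU samples cells were arrested in G1 and let into S phase with hydroxyurea and aphidicolin, which hold replication near its start sites. In all EdU samples, G1 included, the EdU concentration was 10 uM for 3 hours. The labels do not say whether the degron was triggered with auxin, nor how many clones each line represents.

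The values were lists of 29848 MTBP peaks, 62388 H3K4me2 peaks and 2473 initiation zones, of which 948, 1877 and 142 lay on chromosome 19. Each list holds pooled values only, with no value per library, so no error between libraries can be given, depth is unknown, and every comparison below is a description by counts and medians without a test. A gene was counted as having a peak or zone where any part of it lay within 5 kb of the gene span. Among the defining markers of the labelled cell type, 12 of 12 colorectal epithelial genes had H3K4me2, against 2 of 4 hepatocyte, 4 of 4 neuronal, 3 of 4 blood and 0 of 4 muscle genes. All 12 of the colorectal genes also had an MTBP peak and 9 had a zone, whereas MTBP lay at 0 of the hepatocyte, 4 of the neuronal, 2 of the blood and 0 of the muscle genes, and a zone lay at 1 blood gene and at none of the other 3 lists. Over all genes of chromosomes 1 to 22 and X, 78.7% had H3K4me2, 60.6% MTBP and 27.1% a zone, so that these short lists separate cell types little.

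Within 5 kb of the gene span, MTBP, H3K4me2 and initiation zones were less frequent at the ZNF genes than at other chromosome 19 genes. An MTBP peak lay at 66 of the 246 ZNF genes (26.8%) and at 694 of the 1205 other genes (57.6%), while 52.4% of all chromosome 19 genes and 60.6% of all genes on chromosomes 1 to 22 and X had one. H3K4me2 lay at 136 ZNF genes (55.3%) and at 914 other genes (75.9%), with 72.4% over the chromosome and 78.7% over the genome. A zone lay at only 5 ZNF genes (2.03%) but at 526 other genes (43.7%), with 36.6% over the chromosome and 27.1% over the genome. The zone difference was the widest of the 3, and chromosome 19 as a whole lay above the genome in zones but below it in MTBP. Every ZNF gene with MTBP also had H3K4me2, as did 692 of the 694 other genes with MTBP and 12082 of 12099 over the genome. Thus 66 ZNF genes had both, 69 had H3K4me2 alone and 1 (ZNF358) had H3K4me2 and a zone. A further 110 (44.7%) had none of the 3 features, against 248 (20.6%) of the other genes. Of the 5 ZNF genes with a zone, 4 also had MTBP and all 5 had H3K4me2. Without the 41 genes on alternate copies, the 1164 other genes had MTBP in 59.4%, H3K4me2 in 78.3% and a zone in 45.2%, and 210 of them had none of the 3.

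Among genes that had H3K4me2, MTBP was still less frequent at the ZNF genes: 48.5% of 136, against 75.7% of the 914 other genes, 72.2% over the chromosome and 76.8% over the genome. The ZNF genes were longer, with a median span of 23.2 kb against 12.8 kb, so that their windows covered more DNA. In the longest quintile of genes MTBP lay at 17 of 69 ZNF genes (24.6%) and at 154 of 221 other genes (69.7%). In the shortest, all 8 ZNF genes had MTBP, against 144 of 283 others (50.9%). In between, the ZNF share ran from 19.1% to 37.0% and that of the other genes from 52.3% to 60.2%, with no overlap of the ranges.

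ZNF genes of other chromosomes had MTBP and H3K4me2 more often. The 263 genes with a ZNF symbol on the other chromosomes had MTBP in 61.6%, H3K4me2 in 84.8% and a zone in 16.3%, and of those with H3K4me2, 72.6% had MTBP. These shares stand close to the genome's for MTBP and above it for H3K4me2, and below it for zones. On chromosome 19, the 14 ZNF genes that stood outside any cluster had MTBP in 12, H3K4me2 in 14 and a zone in 4. The 232 in clusters had them in 54 (23.3%), 122 (52.6%) and 1 (0.431%). The 20 zinc finger genes of the chromosome under other names, such as ZFP or ZSCAN, had them in 7, 12 and 3.

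Pooled over clusters, non-member genes inside them came close to the clustered ZNF genes in MTBP and zones but lay lower in H3K4me2. The MTBP shares of single clusters differed in both directions. Clusters were taken as runs of at least 5 ZNF genes on 1 arm, each starting within 500 kb of those before it, which gave 4 clusters on 19p and 6 on 19q, numbered from the short-arm end. Within their spans lay 91 genes that were not members, and 23 of these (25.3%) had MTBP, 39 (42.9%) H3K4me2 and 3 (3.30%) a zone, against 60.2%, 78.5% and 46.9% of the 1114 genes outside. The 232 ZNF genes of the clusters, with 23.3%, 52.6% and 0.431%, thus lay slightly below these 91 in MTBP and zones and above them in H3K4me2. Among genes with H3K4me2, MTBP lay at 44.3% of the 122 clustered ZNF genes and 59.0% of the 39 others. By cluster, MTBP lay at 61.5% of ZNF and 13.3% of other genes in 19p cluster 2. In 19q cluster 5 the shares were 56.25% and 26.9%, in 19q cluster 3 26.1% and 60%, and in 19q cluster 6 23.3% and 23.1%. Some of the 23, such as MBD3L1, ECSIT and FIZ1, were counted through a peak that also lay near a ZNF gene. The 91 included 8 olfactory receptor, 6 NLRP, 3 vomeronasal receptor and 2 SIGLEC genes, families mostly used in sensory, germ-line or immune cells, and none of these had any of the 3 features. Of the rest, 12 were zinc finger genes under other names (2 with MTBP, 7 with H3K4me2), 4 were read-through loci named after a ZNF gene (2 and 2), and 56 were of other kinds (19, 30 and 3 with a zone).

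Counted by DNA, the 10 clusters spanned 14.4 Mb and held 70 MTBP peak centres, or 4.87 per Mb, against 22.4 per Mb in the remaining 39.1 Mb of the gene-bearing chromosome. H3K4me2 centres stood at 12.7 per Mb against 43.3 per Mb. Zones covered 0.0524 Mb of the clusters (0.364%) and 25% of the rest. Only 2 of the 142 zones touched a cluster span: 1 in 19p cluster 3 lay by the genes ECSIT and CNN1, and 1 in 19q cluster 3 lay at PLAUR, so that neither came within 5 kb of a ZNF gene. The median ZNF gene stood 611 kb from the nearest zone and the median other gene 18.2 kb (13.9 kb without the genes on alternate copies).

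**Figure D1:**
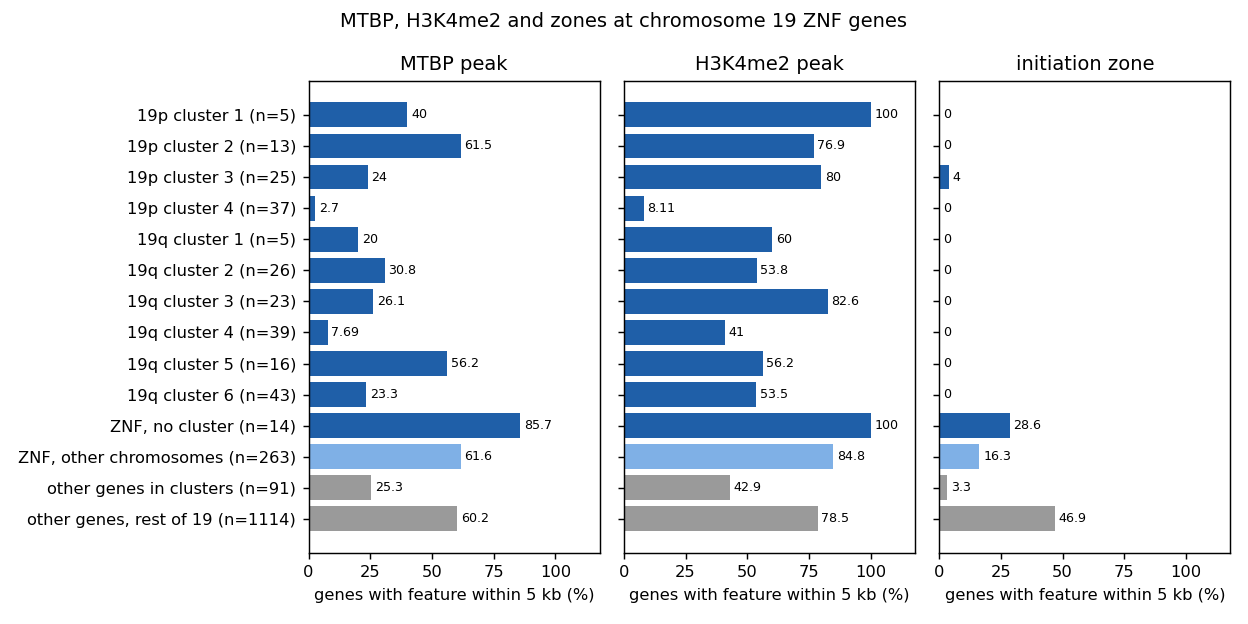
Share of genes (%) with an MTBP peak, an H3K4me2 peak or an initiation zone within 5 kb, for the ZNF genes of each cluster, for ZNF genes in no cluster and for the comparison genes. MTBP ran from 2.70% in 19p cluster 4 to 61.5% in 19p cluster 2, H3K4me2 from 8.11% to 100%, and zones stood at 0 in 9 of the 10 clusters.

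ZNF genes on 19p had MTBP and H3K4me2 within 5 kb less often than those on 19q, an order that 1 cluster decided. On 19p MTBP lay at 19 of 83 ZNF genes (22.9%), H3K4me2 at 41 (49.4%) and a zone at 2 (2.41%). On 19q the counts were 47 of 163 (28.8%), 95 (58.3%) and 3 (1.84%). The other genes had MTBP in 59.6% on 19p and 55.8% on 19q, H3K4me2 in 77.3% and 74.5%, and a zone in 50.1% and 38.0%. Without the genes on alternate copies the 19p shares of the other genes were 63.7%, 82.8% and 54.0%. The 19p shares of the ZNF genes rested on 19p cluster 4: without its 37 genes, the 46 remaining 19p genes had MTBP in 18 (39.1%) and H3K4me2 in 38 (82.6%), above 19q in both. On the promoters alone the arms stood level, over 73 ZNF promoters on 19p and 143 on 19q. MTBP lay on 24.7% of them on 19p and 24.5% on 19q, and H3K4me2 on 50.7% and 50.3%.

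19p cluster 4, next to the centromere, was the emptiest. It ran from ZNF101 to ZNF254 (chr19:19668153-24129968, 4.46 Mb) and held 1 MTBP peak centre, 4 H3K4me2 centres and no zone. Of its 37 genes, ZNF101 alone had MTBP and ZNF101, ZNF14 and ZNF254 had H3K4me2, with a strongest fold enrichment of 12.6, 5.09 and 10.6 (these and all later folds and scores are the authors' own per peak). ZNF101 and ZNF14 stand at the cluster's outer edge and ZNF254 at its centromeric end. The MTBP peak counted for ZNF101 (chr19:19663310-19664280, score 384) lay before the gene's start, outside the cluster span, and also within 5 kb of ATP13A1. The centre inside the span belonged to another peak (chr19:19776087-19777029, score 266), which overlapped H3K4me2 with a fold of 15.0 and stood 15.7 kb from the nearest gene, ZNF506. The other 34 genes had no peak of either kind within 5 kb, among them ZNF91 and ZNF93, which silence SVA and LINE-1 retrotransposons, and ZNF675, an inhibitor of TRAF6 signalling. The nearest zone to ZNF91 was 3903 kb away.

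The clusters of the other 19p stretches were better marked. In 19p cluster 1 (chr19:2819868-2944971), all 5 genes had H3K4me2 and 2, ZNF57 and ZNF77, had MTBP. In 19p cluster 2 (chr19:8509678-9786160), 10 of 13 had H3K4me2 and 8 had MTBP, the highest share of any cluster, with a top score of 324 at ZNF558. In 19p cluster 3 (chr19:11483429-12633834), 20 of 25 had H3K4me2 but only 6 had MTBP, led by ZNF653 (score 289), a repressor of steroidogenic factor 1. MTBP lay at 80% of the marked genes in 19p cluster 2 and at 30% in 19p cluster 3.

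On 19q the shares also varied between clusters. In 19q cluster 1 (chr19:34675979-34964229), ZNF181 alone of 5 genes had MTBP, with a score of 459. In 19q cluster 2 (chr19:36182060-37779586), 8 of 26 had MTBP and 14 H3K4me2. In 19q cluster 3 (chr19:43530835-44500522), 19 of 23 had H3K4me2 and 6 MTBP, the highest score being 336 at ZNF576. This repeated the contrast of 19p cluster 3, with MTBP at 31.6% of the genes that had H3K4me2. In 19q cluster 4 (chr19:51571283-53580269), 16 of 39 genes had H3K4me2 and 3 had MTBP, namely ZNF808, ZNF888 and ZNF765. In 19q cluster 5 (chr19:55476617-56671757), by contrast, all 9 of 16 genes with H3K4me2 also had MTBP. In 19q cluster 6 (chr19:57191500-58489533), the largest by gene number, 23 of 43 had H3K4me2 and 10 had MTBP.

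The promoters of 8 genes are shown to let the clusters be compared by sequence: 4 from 19p cluster 4 (ZNF91, ZNF93 and ZNF675 without any peak, and ZNF101 with H3K4me2), then ZNF146 and ZNF181, whose promoters lay under 2 of the 3 highest-scoring MTBP peaks, ZNF224, with the strongest H3K4me2 among genes without MTBP, and ZNF568, with none. Each runs 5′ to 3′ from 250 bases before to 50 bases after the annotated start, 300 bases in all, from RefSeq (GRCh38.p14). Capitals mark the CCAAT box (CCAAT or, on the other strand, ATTGG) and the ETS core (CCGGAA or TTCCGG).
ZNF91: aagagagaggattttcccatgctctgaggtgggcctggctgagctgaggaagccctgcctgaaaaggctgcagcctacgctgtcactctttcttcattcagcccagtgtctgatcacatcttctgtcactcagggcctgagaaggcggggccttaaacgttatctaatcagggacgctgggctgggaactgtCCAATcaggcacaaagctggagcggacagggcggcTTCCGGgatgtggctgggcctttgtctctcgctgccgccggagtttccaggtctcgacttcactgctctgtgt
ZNF93: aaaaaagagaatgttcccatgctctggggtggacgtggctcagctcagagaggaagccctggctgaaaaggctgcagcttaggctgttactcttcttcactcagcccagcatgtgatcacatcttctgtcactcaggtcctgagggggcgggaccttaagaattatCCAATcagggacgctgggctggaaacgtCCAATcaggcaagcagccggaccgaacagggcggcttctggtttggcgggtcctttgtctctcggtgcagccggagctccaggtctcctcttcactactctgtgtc
ZNF675: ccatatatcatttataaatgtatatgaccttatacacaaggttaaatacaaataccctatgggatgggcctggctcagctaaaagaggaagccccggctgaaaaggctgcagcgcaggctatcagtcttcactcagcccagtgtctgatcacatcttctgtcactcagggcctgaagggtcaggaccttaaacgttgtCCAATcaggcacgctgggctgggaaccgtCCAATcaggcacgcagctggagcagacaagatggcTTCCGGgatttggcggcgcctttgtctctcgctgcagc
ZNF101: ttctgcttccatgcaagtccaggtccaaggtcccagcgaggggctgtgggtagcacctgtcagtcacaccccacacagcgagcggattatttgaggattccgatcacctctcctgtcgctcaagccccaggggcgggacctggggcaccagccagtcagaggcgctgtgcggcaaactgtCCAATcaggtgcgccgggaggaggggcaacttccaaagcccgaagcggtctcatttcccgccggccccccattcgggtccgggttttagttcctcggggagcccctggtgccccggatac
ZNF146: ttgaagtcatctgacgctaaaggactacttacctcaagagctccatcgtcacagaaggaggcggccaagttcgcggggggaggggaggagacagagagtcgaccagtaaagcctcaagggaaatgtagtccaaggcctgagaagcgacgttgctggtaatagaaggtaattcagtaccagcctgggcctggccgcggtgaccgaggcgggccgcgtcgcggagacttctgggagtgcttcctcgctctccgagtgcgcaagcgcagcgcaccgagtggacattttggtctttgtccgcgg
ZNF181: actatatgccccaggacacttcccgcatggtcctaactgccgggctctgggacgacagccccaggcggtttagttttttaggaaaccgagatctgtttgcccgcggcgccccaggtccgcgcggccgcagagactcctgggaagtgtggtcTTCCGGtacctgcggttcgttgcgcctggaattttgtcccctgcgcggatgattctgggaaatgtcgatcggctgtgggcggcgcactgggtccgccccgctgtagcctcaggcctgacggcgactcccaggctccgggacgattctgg
ZNF224: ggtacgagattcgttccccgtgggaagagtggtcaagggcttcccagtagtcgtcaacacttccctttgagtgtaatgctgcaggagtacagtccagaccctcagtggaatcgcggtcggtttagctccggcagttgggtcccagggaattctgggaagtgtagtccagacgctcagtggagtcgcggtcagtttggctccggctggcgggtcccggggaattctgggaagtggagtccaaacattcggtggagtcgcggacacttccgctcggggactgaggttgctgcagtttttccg
ZNF568: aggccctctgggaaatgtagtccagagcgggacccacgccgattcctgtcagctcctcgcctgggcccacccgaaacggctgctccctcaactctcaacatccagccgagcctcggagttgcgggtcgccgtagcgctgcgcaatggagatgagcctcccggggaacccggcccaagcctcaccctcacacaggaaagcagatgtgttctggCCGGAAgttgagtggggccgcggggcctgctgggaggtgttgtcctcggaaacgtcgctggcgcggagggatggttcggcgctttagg
They stand at chr19:23395422-23395721 (ZNF91, minus strand), chr19:19900696-19900995 (ZNF93, plus), chr19:23687163-23687462 (ZNF675, minus), chr19:19668589-19668888 (ZNF101, plus), chr19:36214856-36215155 (ZNF146, plus), chr19:34733993-34734292 (ZNF181, plus), chr19:44094111-44094410 (ZNF224, plus) and chr19:36916082-36916381 (ZNF568, plus).

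ZNF91 and ZNF93 shared 83.3% of aligned positions, ZNF91 and ZNF675 65.9% and ZNF93 and ZNF675 64.5%, whereas the other pairs of the 8 promoters lay between 47.4% and 55%. The ZNF91, ZNF93, ZNF675 and ZNF101 promoters each held a CCAAT box and 11, 10, 10 and 18 CpG dinucleotides. The ZNF146, ZNF181, ZNF224 and ZNF568 promoters held no CCAAT box and 24, 28, 20 and 25 CpG. All 8 were matched on both strands, and a match describes letters only.

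Over all members, 216 of the 246 ZNF genes had a promoter in the table, as did 969 other genes of the chromosome and 15812 protein-coding genes in all. The median CpG count in 300 bases was 20 for ZNF promoters, 21 for the other chromosome 19 promoters and 22 for all. Within the ZNF genes it was 23 at the 53 promoters with MTBP (24.5% of the 216), 21.5 at the 56 with H3K4me2 and no MTBP, and 17 at the 107 with neither, or 21 at the 80 of these outside 19p cluster 4. The corresponding medians of the other genes were 27, 27 and 9, with MTBP on 337 promoters (34.8%). ZNF promoters without a peak thus had more CpG than other promoters without one, and ZNF promoters with MTBP had fewer. The 29 promoters of 19p cluster 4 had a median of 10 and a range of 8 to 18, the lowest median of the 10 clusters. In the other clusters the medians ran from 16 to 29.5.

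**Figure D2:**
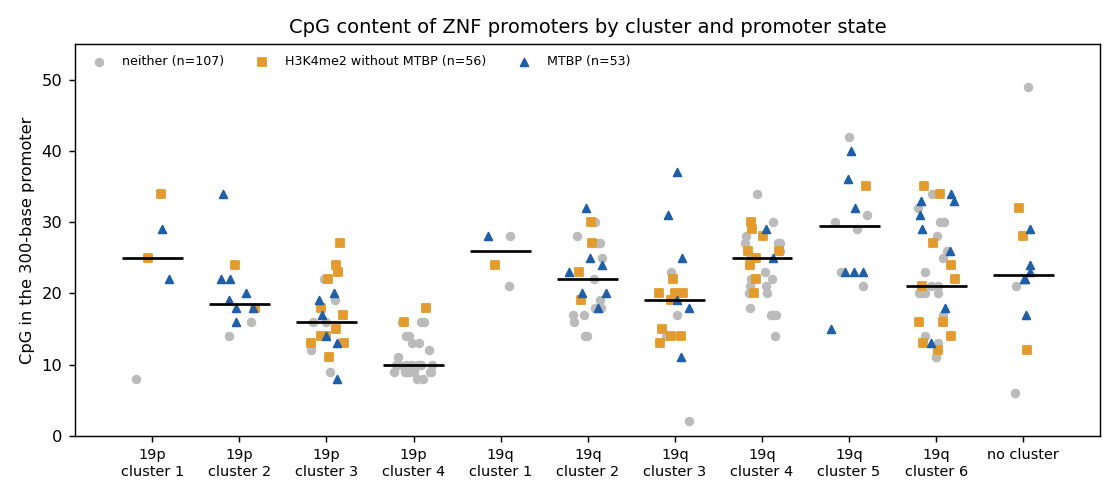
CpG count per 300-base promoter of the 216 ZNF genes with a promoter entry, by cluster, with a line at each median. Symbols mark whether the promoter carried MTBP (53), H3K4me2 without MTBP (56), or neither (107). The median was 10 in 19p cluster 4 and ran from 16 to 29.5 in the other clusters.

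The share of promoters with a CCAAT box or an ETS core varied widely between clusters. CCAAT was found in 53.7% of ZNF promoters, against 37.0% of the other chromosome 19 promoters and 36.3% of all promoters. It was present in 29 of 29 promoters of 19p cluster 4, at a median of 53 bases before the start, in 5 of 5 of 19p cluster 1, in 22 of 24 of 19p cluster 3 and in 28 of 40 of 19q cluster 6. In 19q clusters 2, 3 and 4 it was found in 24%, 21.1% and 28.1%. The ETS core CCGGAA was found in 56.0% of ZNF promoters, 21.9% of the others and 22.8% of all, and in 23 of 29 of 19p cluster 4, 31 of 40 of 19q cluster 6 and 23 of 32 of 19q cluster 4. ZNF promoters with MTBP held CCAAT in 39.6% and the ETS core in 45.3%, and those with neither mark in 55.1% and 64.5%. Without 19p cluster 4 the 80 promoters with neither held CCAAT in 40% and the ETS core in 57.5%. The CCAAT difference between promoters with MTBP and those with neither thus rested on that cluster. The 56 ZNF promoters with H3K4me2 and no MTBP, of which 2 were from 19p cluster 4, held CCAAT in 64.3% and the ETS core in 50%. Their CCAAT share was also above that of the promoters with MTBP. The other genes had 48.1% and 32.9% at promoters with MTBP and 32.9% and 11.4% at those with neither.

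The remaining motifs were the GC box GGGCGG, the CRE TGACGTCA, YY1's AAGATGG, NRF1's GCGCATGC and ZNF143's ACTACAA, each searched on both strands, and no motif contains another. The GC box was in 67.6% of ZNF promoters, 65.9% of the others and 58.5% of all. The CRE was in 3.24%, 3.41% and 2.59%, the YY1 letters in 7.87%, 7.84% and 6.40%, and the NRF1 letters in 4.17%, 5.26% and 4.26%. The ZNF143 letters were in 5.09%, 2.79% and 3.15%. They were in 6 of the 53 ZNF promoters with MTBP (11.3%), against 1 of the 107 with neither (0.935%). At the 56 with H3K4me2 and no MTBP they were in 4 (7.14%). The other genes had the same order, with 5.34% at promoters with MTBP and 0.932% at those with neither.

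Where MTBP did occur at ZNF genes, it sat at the start of the gene. The 66 genes shared 71 distinct peaks, of which 8 lay near 2 ZNF genes each and 15 also near another gene. Of these 71 peaks, 65 (91.5%) were in the authors' promoter class, 3 in their enhancer class and 3 in neither, against 60.2% promoter and 25.1% enhancer among the 792 peaks near other genes. By the authors' distances, 87.3% lay within 1 kb of an annotated start, against 54.3%. Over the 61 ZNF genes with both a known start and a peak, the nearest MTBP centre was a median of 185 bp from the start, and 52 (85.2%) were within 500 bp. For the 584 other genes the median was 507.5 bp and the share 49.5%. H3K4me2 centres gave 243.5 bp and 81.7% for 120 ZNF genes, against 473 bp and 51.4% for 765 others.

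**Figure D3:**
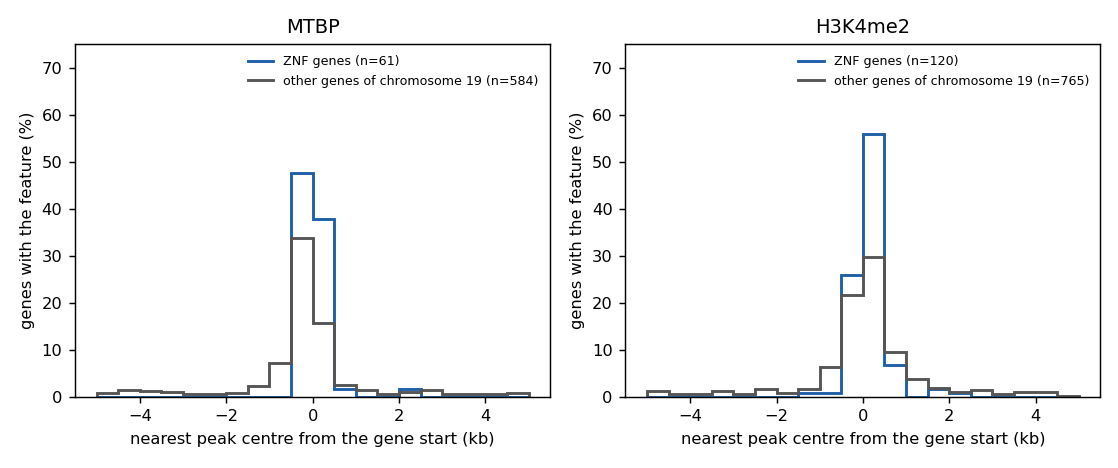
Histograms of the distance (kb) from the annotated gene start to the nearest MTBP or H3K4me2 peak centre, negative values being upstream, for ZNF genes and other chromosome 19 genes, within 5 kb. ZNF peaks gather at the start, with 85.2% of MTBP and 81.7% of H3K4me2 centres within 500 bp, against 49.5% and 51.4% at other genes.

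Peak scores near ZNF genes were close to those near other genes. MTBP scores ran from 95 to 645 with a median of 201, and the median near other genes was 190. The peaks near ZNF genes were a median of 831 bp wide, those near other genes 946 bp. All but 1 of the 71 overlapped an H3K4me2 peak. The exception lay in an exon of ZNF565 (chr19:36182474-36183293, score 211). Of the promoters with MTBP, 53 of 53 ZNF promoters and 333 of 337 other promoters also carried H3K4me2.

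The highest-scoring peak covered the annotated starts of ZNF146, which encodes a protein made almost wholly of zinc fingers, and of ZNF565, which runs the other way (chr19:36214304-36215497, score 645). Its signal was 718 in the wild-type line and 271 in the deltaC line. It covered the whole ZNF146 promoter printed above. ZNF181 (chr19:34733614-34734836) and ZNF444 (chr19:56140726-56141232) followed with a score of 459 each, and ZNF749 with 446. The peak at ZNF181 was centred 18 bp before the start of the gene, and the wild-type and deltaC signals were 680 and 278. At ZNF444, which binds the promoter of the scavenger receptor gene SCARF1, they were 497 and 285. These genes lay in 19q clusters 2, 1, 5 and 6.

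ZNF473, which encodes a part of the U7 complex that trims histone messenger RNAs, had a score of 409 at a peak also near VRK3, with signals of 631 and 539. ZNF787, ZNF541 and ZNF101 each reached 384. The highest number of peaks was 3, at ZNF524, a telomere-binding protein gene in 19q cluster 5, and it shared 2 of them with ZNF865. ZNF565, ZNF541, ZNF865, ZNF526, ZNF77, ZNF846, ZNF69, ZNF575, ZNF552, ZNF544 and ZNF837 had 2 each.

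Initiation zones came at 5 places within 5 kb of a ZNF gene, each of them also near other genes, and 4 of the 5 genes stood outside the clusters. ZNF541, a germ-cell gene of meiosis, lay whole in a zone of 115 kb with a score of 2137, which held 5 MTBP peaks. ZNF114 lay mostly in a zone of 167 kb with a score of 2138 and 8 MTBP peaks. ZNF574 lay whole in a zone of 44.1 kb, with a score of 523 and 1 MTBP peak. The zone at ZNF358 was 30.6 kb wide with a score of 248 and held 3 H3K4me2 peaks but no MTBP peak. The fifth, at ZNF653 in 19p cluster 3, was 10.9 kb wide, scored 98.2, ended 3.07 kb from the gene and held neither.

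H3K4me2 peaks that overlapped MTBP were stronger and wider than the rest, at ZNF genes as at others. The 168 H3K4me2 peaks near ZNF genes had a median fold of 14.7, against 16.2 for the 1500 near other genes. The 72 that overlapped MTBP had a median fold of 19.7 and a width of 1900 bp, and the 96 that did not had 11.5 and 1257 bp. Near other genes the values were 20.5 and 1958 bp with MTBP (738 peaks) and 11.6 and 1049 bp without (762 peaks). Split into quintiles of the strongest fold at a gene, the share of ZNF genes with MTBP was 25.5%, 55.3%, 61.1%, 66.7% and 100% from the weakest to the strongest. For the other genes it was 43.2%, 73.8%, 82.4%, 84.6% and 87.4%. ZNF genes lay below the others in the first 4 quintiles and above them in the last, where they numbered 10, and 55 of the 136 ZNF genes fell in the weakest.

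**Figure D4:**
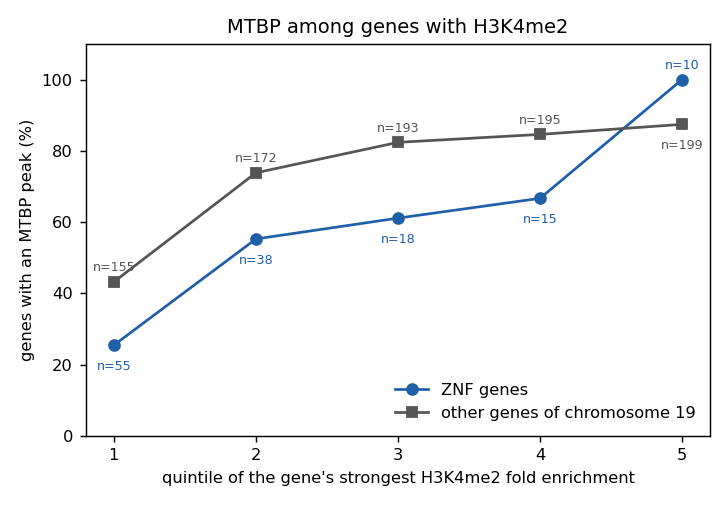
Share of genes (%) with an MTBP peak within 5 kb, by quintile of the gene's strongest H3K4me2 fold enrichment, among chromosome 19 genes with H3K4me2; n is the number of genes. ZNF genes run from 25.5% to 100% and other genes from 43.2% to 87.4%.

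Of the 10 named genes with the strongest H3K4me2 and no MTBP, 6 came from 19q cluster 3. ZNF224, whose product represses the aldolase A gene and works with WT1, and its neighbour ZNF284 shared a peak with a fold of 29.6 (chr19:44093497-44095747). ZNF225 had a fold of 27.1, and ZNF155 and ZNF230 shared a peak of 27.0. ZNF584 followed with 24.6, ZNF792 with 23.8, ZNF121 with 21.8, ZNF45 with 21.6 and ZNF20 with 20.8, a value that ZNF625 shared. ZNF224, ZNF284, ZNF225, ZNF155, ZNF230 and ZNF45 belong to 19q cluster 3. The strongest fold at any ZNF gene was 47.7, shared by ZNF324 and ZNF446, and that peak carried MTBP with a score of 336.

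The 10 longest ZNF genes with none of the 3 features were ZNF91 (90.5 kb), ZNF577 (83.5 kb), ZNF568 (81.6 kb), ZNF676 (81.2 kb), ZNF331 (77.0 kb), ZNF730 (72.0 kb), ZNF208 (71.1 kb), ZNF578 (63.3 kb), ZNF529 (61.9 kb) and ZNF560 (60.8 kb). ZNF568 is the human counterpart of a mouse repressor of a placental Igf2 transcript, and ZNF331 is an imprinted gene often silenced in colorectal cancer. Of the genes chosen for a known role, ZNF382, ZNF471 and ZNF582, described as silenced by methylation in tumours, and ZNF649, a repressor of serum response and AP-1 targets, also had none. Over all 246 ZNF genes, 44.7% had none, and a link to silencing in these cells was not tested. ZNF274, which brings SETDB1 to the coding ends of ZNF genes, had H3K4me2 alone, with a fold of 5.97. ZNF473 and ZNF114 had MTBP, at scores of 409 and 131.

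The authors' signal was lower in the deltaC line than in the wild-type line at most MTBP peaks near ZNF genes, and the median ratio was nearer to 1 than at the chromosome's other peaks. The ratio is the authors' deltaC value over their wild-type value per peak, as log2 with 1 added to each; the scaling between lines was not given, so only comparisons between peaks are made. The median was -0.98 over the 71 peaks (quartiles -1.39 and -0.64), -1.02 on 19p and -0.93 on 19q. It was -1.19 over the 792 peaks near other genes, -1.18 over the chromosome and -0.93 over all 29848 peaks. A ratio below -1 was found at 35 of 71 (49.3%) against 63.0% near other genes, 61.9% over the chromosome and 44.9% over the genome. The ZNF peaks thus stood near the genome's median, and the chromosome's other peaks below it. Among peaks that scored at least the median, the medians were -1.16 near ZNF genes and -1.20 near other genes, a difference of 0.03.

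Among clusters the median ratio ran from -0.73 in 19q cluster 3 (7 peaks) to -1.45 in 19p cluster 4, which had 1 peak. 19q cluster 6 stood at -0.80 over 10 peaks, 19p cluster 2 at -0.97 over 9 and 19q cluster 2 at -1.09 over 8. In 19q cluster 4 the median was -1.39 over 3 peaks. Each cluster with over 5 peaks had quartiles that overlapped those of all ZNF peaks.

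A signal above that of the wild-type line was found at 4 of the 71 peaks (5.63%), against 10 of 792 (1.26%) near other genes. Over the chromosome it was found at 15 of 948 peaks (1.58%), and over the genome at 1350 of 29848 (4.52%). The ZNF share thus stood near the genome's. The 4 ZNF peaks lay at ZNF780A (wild-type 135, deltaC 205), ZNF607 (172 and 225), ZNF562 (142 and 185) and the start of ZNF700, inside the span of ZNF69 (177 and 198). Their scores of 103, 121, 155 and 112 were below the ZNF median. The ZNF562 peak was the only one of the 71 (1.41%) that the authors' list names for the deltaC line. Near other genes the list names 11 of 792 (1.39%) for that line. The ZNF114 peak came next, at 286 and 252. At the strong ZNF473 peak, the deltaC signal being 85.4% of the wild-type signal.

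The ZNF genes with the lowest median ratios of deltaC to wild-type signal had low peaks away from starts as well as at them. A peak in an intron of ZNF536, a repressor of neuronal differentiation (chr19:30391939-30392749, score 360), had a wild-type signal of 522 and a deltaC signal listed at 0. The exon peak of ZNF565 had 415 and 31.2, or 7.51% of the wild-type value, and was also the peak without H3K4me2. At gene starts, ZNF317 had 120 and 11 (9.12%), ZNF296 had 239 and 36.7 (15.3%) and ZNF627 had 319 and 77.3 (24.3%). The ZNF317 wild-type signal was the lowest of the 71 peaks, whose median was 324.

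**Figure D5:**
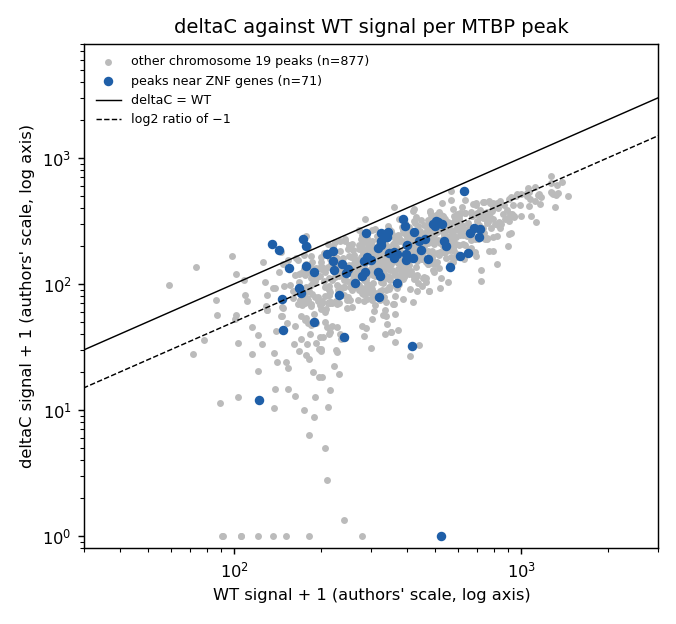
The authors' signal per MTBP peak in the deltaC line against the wild-type line, 1 added to each, both axes on a log scale, for the 71 peaks near ZNF genes and the other 877 peaks of chromosome 19. Most points lie below the line of equal signal, with 4 ZNF peaks above it and the ZNF536 intron peak at a deltaC signal of 0.

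The proteins through which KRAB zinc finger proteins act were looked at in the same way, as 20 genes spread over the genome. All 20 had H3K4me2, 15 had MTBP and 11 had a zone, where 78.7%, 60.6% and 27.1% of all genes had them. TRIM28 itself lies on chromosome 19 beyond the end of 19q cluster 6 (chr19:58544064-58550715) and had an MTBP peak with a score of 409 and a zone. UHRF1 (score 673) and DNMT1 (score 201), which maintain DNA methylation, had MTBP and a zone, and SETDB1 (score 160) had both as well. MPHOSPH8 and TASOR of the HUSH complex, the deacetylase gene HDAC2 and the chromatin remodeller gene ATRX were among those with H3K4me2 and no MTBP.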

How the data were processed

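The members, lists and comparisons were chosen with earlier results of these data known. Per the submitters' processing notes, reads were handled with Trim Galore, Bowtie2, MACS2 and HOMER on hg38; no version, setting or pooling step was given. The 22 libraries were grouped by their labels, but the deposited lists hold no values per library. The deposited MTBP list gives a peak score and a signal per line (WT and deltaC), the deposited H3K4me2 list a fold ratio over background and -log10 p-values, which were not used, and the deposited zone list a score.

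Gene spans came from RefSeq (GRCh38.p14, with hg38 coordinates on the main chromosomes; 153 of 19974 genes lie on alternate copies or other scaffolds, none of them a member) and promoters from its table of 300-base windows. A peak or zone counted where at least 1 bp lay within 5 kb of the span. Arms were split at the widest gap between coding genes (24129968 to 29205320). log2 ratios used a pseudocount of 1. The 10 MTBP and 116 H3K4me2 peaks on Y were left out. Genes were named by rule: top MTBP scores and peak counts, all with zones, strongest H3K4me2 without MTBP, extreme ratios, the top gene per cluster, the longest without features, and genes of known role; names outside it were chosen after values were seen. Counts used Python 3.11.15, pandas 2.3.3 and numpy 2.4.6, were tested on simulated data, and were repeated with other windows, scores, comparison genes and each cluster left out. Zinc finger and KRAB counts per protein were not made.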

Additional observations from a re-analysis of the deposited data

How the results depend on the processing

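Values are ZNF minus other genes in percentage points. For MTBP the difference was -30.8, with -18.2 for the gene span alone, -22.0 for a 1 kb window, -13.4 for the start with 1 kb either side, -22.1 for peaks of at least the median score and -32.8 to -26.5 without each cluster in turn. For H3K4me2 it was -20.6, with -8.31 at the start, -13.7 with merged windows, -30.3 for peaks of at least the median fold and -23.4 to -12.2 without each cluster. For zones it was -41.6, with -9.89 where the zone centre had to lie in the window, -34.7 at the start, -33.7 with zones narrower than the median left out and -41.8 to -41.2 without each cluster. For MTBP among genes with H3K4me2 it was -27.2, with -16.2 at like H3K4me2 fold and -30.8 to -23.2 without each cluster. Comparisons added after the data were seen used other genes inside the cluster spans, where all 246 ZNF genes gave 1.55 for MTBP, 12.4 for H3K4me2, -1.26 for zones and -10.4 for MTBP among genes with H3K4me2. Against the same genes, the 232 ZNF genes in clusters gave -2.0, 9.73, -2.87 and -14.7, so that H3K4me2 alone reversed in both. Another comparison used ZNF genes of other chromosomes, with -29.5 for H3K4me2 and -14.3 for zones. The log2 ratio difference was 0.21, with 0.0347 for peaks of at least the median score, 0.18 to 0.22 without each cluster and -0.0581 against peaks of other chromosomes. The 19q minus 19p difference was 5.94 for MTBP (-10.3 to 13.1 without each cluster), 8.88 for H3K4me2 (-24.3 to 22.1) and -0.57 for zones (-2.51 to 0.12). It turned to -10.3 for MTBP and -24.3 for H3K4me2 without 19p cluster 4, and for zones to 0.12 without 19p cluster 3, 0.0097 without 19q cluster 4 and 0.09 without 19q cluster 6. The cause of these changes was not tested. Leaving out 41 comparison genes on alternate copies gave -32.5 for MTBP, -23.0 for H3K4me2, -43.2 for zones and 0.21 for the log2 ratio. The clusters numbered 9 with a 1 Mb gap.

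The lists give no depth and no value per library, so no result has an error between libraries. Neighbouring genes share peaks and zones, so genes are not independent. No paired analysis was possible because the lists hold pooled values without replicate numbers. Counts per protein, which were planned, were not run.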
